A study of Mus musculus with 8 samples.

Results

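Cluster C9 of the authors' annotation holds the differentiated alveolar cells of the lactating mouse mammary gland. Its members were taken as the cells that the deposited annotation places in C9 and marks as passing all quality filters, found in the count matrices by library and barcode. C9 had 89 of the 25009 passing cells of the series, with 42 cells from lactating mouse L_1, 47 from lactating mouse L_2 and 0 from the other 6 libraries. The series has 8 libraries, each from 1 C57BL/6N mouse, with 2 mice at each of 4 stages, namely nulliparous mice of 8 weeks (NP), mice in gestation (G, day 14.5), mice in lactation (L, day 6) and mice after involution (PI, day 11 after natural weaning). Dissociated glands were sorted for EpCAM-positive cells, with a gate against CD31, CD45 and Ter119, which mark endothelial, immune and red blood cells, and single cells were made into 10x Chromium 3′ libraries. The groups set beside C9 are C11, the alveolar progenitor cells of the same L mice (231 cells), C8, the differentiated alveolar cells of gestation (3744 cells of the G mice), and C14, the myoepithelial cells of the L mice (7741 cells). The age of the G, L and PI mice is not given in the sources used here, and C9 stands on the cells of 2 mice alone.

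Alveolar cells line the sacs of the gland in which milk is made. During gestation they divide and begin to make caseins under prolactin, whose receptor acts through the kinase JAK2 and the transcription factor STAT5, and around birth they turn to full secretion. A lactating alveolar cell then exports caseins and whey proteins through the endoplasmic reticulum (ER) and Golgi, makes lactose in the Golgi, builds fatty acids from glucose, and releases fat as droplets wrapped in its own surface membrane. *Csn1s1*, *Csn1s2a*, *Csn1s2b*, *Csn2* and *Csn3* encode the caseins, which carry calcium phosphate in micelles. *Wap* encodes whey acidic protein, *Lalba* encodes alpha-lactalbumin, the subunit that turns a galactosyltransferase into lactose synthase, and *Glycam1* encodes a mucin-like whey protein.

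Values are counts of UMIs (unique molecular identifiers, which mark single captured transcripts), added up over all cells of a cluster in a library, and a replicate is a mouse. Levels are CPM, UMIs of a gene scaled to 1e6 UMIs of the sum. Since the 8 milk protein genes took a large part of all UMIs of C9, levels are given on the total without these 8 genes unless the total of all genes is named. Leaving them out raised each other level of C9 by 1.81 times in L_1 and 1.72 times in L_2, but that of C11 by 1.08 and 1.06 times and that of C14 by 1.00 times in both mice. The 3′ protocol gives each transcript 1 tag, so levels of different genes can be compared without scaling by length.

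The casein genes lie side by side on chromosome 5 (mm10, GENCODE vM21 coordinates), with *Csn1s1* at chr5:87666208-87682578 on the plus strand, *Csn2* at chr5:87692624-87699630 on the minus strand, *Csn1s2a* at chr5:87774567-87788797 and *Csn1s2b* at chr5:87808082-87824426 on the plus strand, and *Csn3* at chr5:87925579-87932665 on the plus strand. *Wap* lies at chr11:6635482-6638637, and *Lalba* at chr15:98480400-98482721 and *Glycam1* at chr15:103562759-103565081 share chromosome 15, with the 3 of them on the minus strand. STAT5 dimers are known to bind the palindrome TTCNNNGAA, which reads the same on both strands. RefSeq promoters (GRCm38.p6, the 250 bases before the start) were at hand for 6 of the 8 milk protein genes, and 3 of them held the palindrome, *Csn1s1* at 100, *Csn2* at 93 and *Glycam1* at 145 bases before the start, while 7.02% of 32851 promoters did. The promoters of *Csn1s1* (chr5:87666108-87666207, the last 100 bases before the start), *Wap* (chr11:6638650-6638749, likewise) and *Glycam1* (chr15:103565082-103565331, 250 bases) are shown as those of a casein and of the 2 whey protein genes whose levels over C9 cells are described next. They read 5′ to 3′ on the strand of the gene, with the palindrome in capitals.
Csn1s1: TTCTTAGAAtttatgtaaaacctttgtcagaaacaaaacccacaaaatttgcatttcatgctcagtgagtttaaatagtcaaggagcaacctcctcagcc
Wap: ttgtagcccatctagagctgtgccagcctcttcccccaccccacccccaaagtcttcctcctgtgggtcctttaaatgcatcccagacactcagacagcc
Glycam1: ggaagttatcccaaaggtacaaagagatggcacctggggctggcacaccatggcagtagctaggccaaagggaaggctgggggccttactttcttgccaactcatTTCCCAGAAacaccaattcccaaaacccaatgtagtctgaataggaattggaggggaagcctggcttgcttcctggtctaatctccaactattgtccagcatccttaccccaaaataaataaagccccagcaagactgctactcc
A match is a string of letters in this window and not a measured binding site, and the window of *Wap* holds no match.

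C9 was a small part of the lactation libraries. It made up 0.732% of the 5736 passing cells of L_1 (exact 95% interval 0.528% to 0.989%) and 1.31% of the 3583 of L_2 (0.965% to 1.74%), a mean of 1.02% ± 0.410 (SD, n = 2). Of the luminal cells alone it was 22.1% and 33.1%. Most cells of these libraries were C14, with 80.8% and 86.6%. C9 cells were deep, with a median of 11602 UMIs in L_1 (1980 to 52835) and 16271 in L_2 (2192 to 51258), against 3701 and 4148 in C14, and their sums held 572463 and 741979 UMIs. Library totals ran from 20586478 to 35711533 UMIs in the L and G mice. Of 25806 barcodes, 392 occurred in more than 1 library and 33 in both L libraries. The study removed cells with such barcodes in its quality control. That 0 of the C9 barcodes were shared follows from this filter and is no separate check. No doublet caller was run here.

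RNA of other cells was present in the C9 sums. The 15 basal and myoepithelial markers, such as *Acta2* and *Krt14*, reached a median of 11.3% of their C14 level in L_1 (7.21% to 27.3%) and 6.01% in L_2 (2.52% to 8.38%), against 14.8% and 12.6% in C11 and 0.747% and 0.844% in C8 beside the basal cluster C13 of gestation. Most C9 cells carried a little of it, with a median of 0.582% of non-milk UMIs on these markers in L_1 and 0.377% in L_2, against 8.76% and 7.67% in C14 cells. In L_1, 2 cells stood apart with 5.17% and 7.72%, and without them the median level was 8.48% of that in C14. Over cells the basal share of non-milk UMIs went with the milk share (Spearman's rho 0.704 over 42 cells and 0.702 over 47, cells of 1 library each). A larger milk share leaves fewer non-milk UMIs, so these shares are linked by the way they are computed. The rho therefore cannot tell more basal RNA from fewer other UMIs. Whether such RNA is free RNA of the suspension or a second cell under the same barcode was not tested. For this reason the C14 level of the same mouse is given beside results it could touch.

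The 4 genes that mark the cluster were present in C9 of both mice. *Wap* stood at 166083 CPM in L_1 and 174974 CPM in L_2, *Csn2* at 175420 and 137596, *Lalba* at 3911 and 5411, and *Glycam1* at 8253 and 49549. Both mice were close for *Wap*, *Csn2* and *Lalba*, whereas *Glycam1* was lower in L_1 by a wide margin. In C14 of the same mice these genes stood at no more than 393.2 CPM. On the total of all genes *Wap* was at 91754 and 101975 CPM in C9. Because the authors clustered and named the cells from these same counts, these levels describe the cluster and are no independent support for its name, which holds for the test of the same genes against C8 given later as well.

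Milk protein transcripts made up 44.8% of all UMIs of C9 in L_1 (exact 95% interval 44.6% to 44.9%) and 41.7% in L_2 (41.6% to 41.8%), a mean of 43.2% ± 2.14 (SD, n = 2). The intervals cover counting error only. The share was 7.22% and 5.92% in C11, 9.67% in G_1 and 5.74% in G_2 in C8, and 0.181% and 0.212% in C14. C9 of both mice was thus well above every other sum listed.

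The mixture of milk transcripts differed between C9 and C8. Of the milk protein UMIs of C9, *Csn1s2a* took 32.2% in L_1 and 29.6% in L_2, *Wap* 20.5% and 24.4%, *Csn2* 21.7% and 19.2%, *Csn1s1* 12.2% and 8.67%, and *Csn1s2b* 6.22% and 4.91%. In C8 *Csn1s2a* and *Csn2* together formed the bulk, with 40.7% and 32.2% in G_1 and 37.1% and 35.3% in G_2, and *Wap* held 0.424% and 0.153% and *Csn1s2b* 0.0225% and 0.0208%. The mixture of C11 was like that of C8 in this respect, since *Wap* took 0.335% of its milk protein UMIs in L_1 and 1.15% in L_2. The milk protein RNA found in C14 was rich in *Csn1s2b* (28.3% and 32.0%) and *Wap* (17.8% and 18.5%). Mice did not overlap between C9 and C8 in the share of *Wap* or of *Csn1s2b*.

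**Figure D1:**
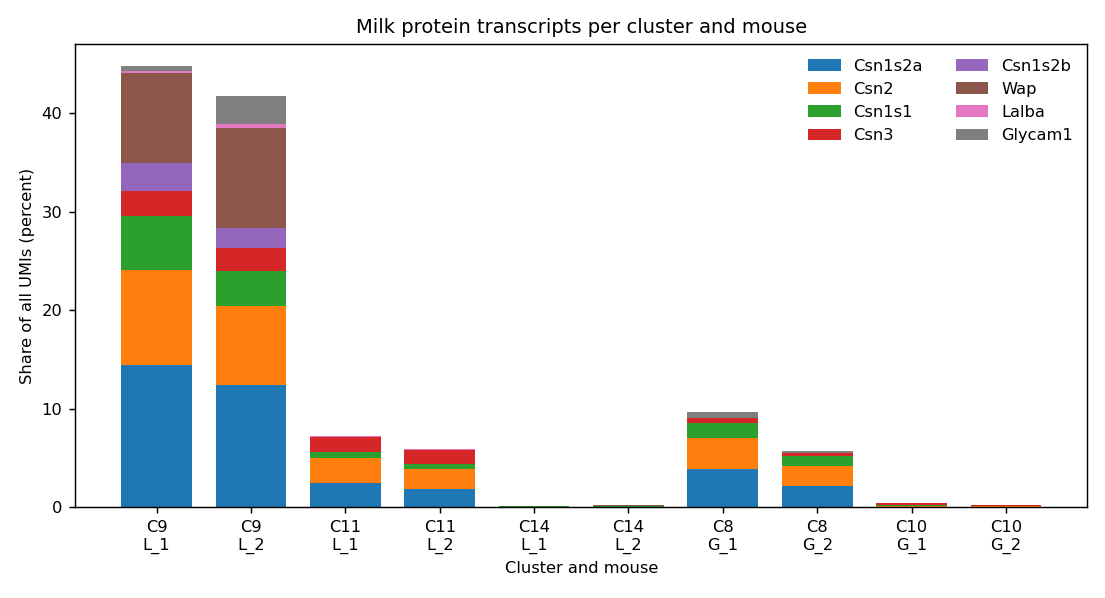
Share of all UMIs (percent, y axis) that fell on each of the 8 milk protein genes, stacked, in each cluster and mouse (x axis). C9 reached 44.8% in L_1 and 41.7% in L_2, and *Wap* is a visible part of C9 but not of C8, C11 or C10, a cluster of 215 cells of the G mice.

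Single C9 cells varied over a wide range. The milk protein share of a cell ran from 12.2% to 76.0% in L_1 (quartiles 25.2% and 58.4%, median 38.5%) and from 7.46% to 75.4% in L_2 (quartiles 24.3% and 51.0%, median 34.6%). Deeper cells held more of it, with a median of 48.2% in the 21 deeper cells of L_1 against 32.1% in the 21 shallower ones, and 41.5% in 24 against 30.6% in 23 cells of L_2. Depth and milk content of a cell cannot be told apart here, since milk transcripts are themselves counted in the depth.

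*Wap*, and in part *Csn1s2b*, set single C9 cells apart from C11 cells. *Wap* made up a median of 3.93% of the UMIs of a C9 cell in L_1 (0.0114% to 30.5%) and 7.29% in L_2 (0.0849% to 25.4%). A background level was set so that 2.5% of the C14 cells of the same mouse, which are not known to make milk, lay above it. *Wap* was above it in 39 of 42 and 45 of 47 cells of C9, and in 3 of 142 and 2 of 89 cells of C11. *Csn1s2b* was above it in 23 of 42 and 27 of 47 cells of C9, against 4 of 142 and 1 of 89 cells of C11. *Csn2*, the beta-casein gene, was above it in all cells of C9 and in 110 of 142 and 47 of 89 cells of C11. Thus *Csn2*, unlike *Wap*, was above background in most C11 cells of both mice. This did not hold for each casein, since *Csn1s2a* was above it in 79 of 142 and 31 of 89 cells of C11.

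The share of cells with at least 1 UMI of *Wap* set C9 apart, but C11 lay below C14. With each cell thinned to 2000 UMIs, which left out 1 C9 cell of L_1, *Wap* was found in 97.6% of the C9 cells of L_1 and 31.4% of its C11 cells, and C14 cells showed it in 45.0%. In L_2 it was found in 47 of 47 thinned C9 cells, 37.1% of C11 cells and 47.6% of C14 cells. Without thinning *Wap* was found in 42 of 42 and 47 of 47 cells of C9. In most C11 cells *Wap* was thus no higher than the background level set from C14. The exceptions were 3 of 142 and 2 of 89 cells, and 1 C11 cell of L_2 reached 1.70% of its UMIs.

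Within C9, *Wap*, *Csn1s2b* and *Glycam1* were uneven. *Csn1s2b* took at least 1% of the UMIs in 17 of 42 cells of L_1 and 16 of 47 of L_2, and 16 cells of each mouse had *Wap* at 1% or more as well, while *Wap* reached 1% in 31 and 40 cells. The cells with *Csn1s2b* at 1% or more had a median milk share of 62.7% in L_1 and 51.3% in L_2, against 27.5% and 28.4% in the other cells. *Csn1s2b* is itself counted in that share, so part of this gap follows from the split. *Wap* and *Csn1s2b* followed each other over cells, with Spearman's rho of 0.759 over 42 cells and 0.723 over 47, and *Csn2* and *Csn1s2a* with 0.836 and 0.857, each per 10000 non-milk UMIs. These correlations are descriptions of cells that share a library. *Glycam1* had no UMI in 19 cells of L_1 and 7 of L_2 and reached 1% in 6 and 29 cells. Its correlation with *Wap* was 0.183 in L_1 and 0.659 in L_2, so *Glycam1* went with *Wap* in the cells of L_2 but hardly in those of L_1.

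**Figure D2:**
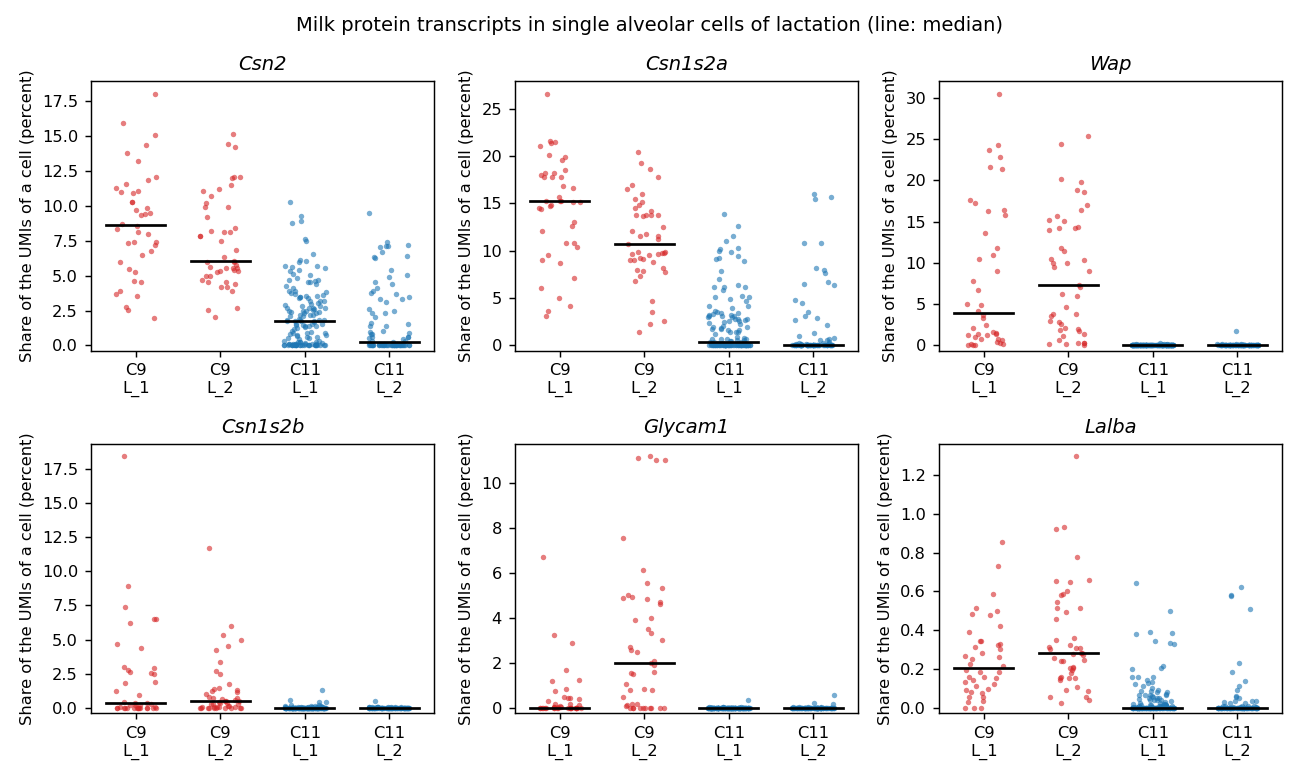
Share of the UMIs of each cell (percent, y axis) on 6 milk protein genes, in C9 and C11 of L_1 and L_2 (x axis), with 1 point per cell and a line at the median. *Csn2* and *Csn1s2a* take a large share in some cells of both clusters, but the C11 median of *Csn1s2a* is 0.384% in L_1 and 0.0405% in L_2. *Wap* is near 0 in C11 and reaches 30.5% and 25.4% in single cells of C9.

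Levels over the 33 sums of the other epithelial clusters with at least 20 cells in a mouse showed which genes were at their highest in C9. Of 1991 genes at 50 CPM or more in C9 of both mice, 39 were at least 2 times and 6 at least 10 times as high in the lower C9 mouse as in the highest other sum. The 6 genes were *Pip* (231 times), *Wap* (229.6 times), *Orm1* (58.2 times), *Csn1s2b* (51.6 times), *Lao1* (13.4 times) and *Spp1* (10.3 times). *Pip* encodes a prolactin-inducible secreted protein, *Orm1* an acute-phase plasma protein of the lipocalin family, *Lao1* an amino acid oxidase of milk, and *Spp1* osteopontin, a secreted phosphoprotein. *Lalba* (8.28 times), *Gm12863* (6.87 times) and *Cidea* (6.41 times), which encodes a fat droplet protein, followed, together with the pseudogene *Fabp3-ps1* (9.25 times), whose reads may in part be those of *Fabp3*. Of the 10, the next highest sum was C14 for *Csn1s2b*, C8 for *Fabp3-ps1*, C7 of PI_2 for *Spp1* and C11 for the other genes. On the total of all genes the ratios of *Pip*, *Wap*, *Orm1*, *Csn1s2b*, *Lao1* and *Spp1* ran from 145 for *Pip* to 5.75 for *Spp1*, and *Lalba* (4.93), *Gm12863* (4.09) and *Cidea* (3.87) were lower.

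Differentiated alveolar cells of lactation were then set against those of gestation, to see how the same named cell type differs between the stages. C9 of L_1 and L_2 was compared with C8 of G_1 and G_2 by edgeR's quasi-likelihood test on the 4 sums, with Benjamini-Hochberg adjustment over all genes tested at 0.05. Log2 fold changes are lactation minus gestation and are given ± SE, and each adjusted p below is of this test. Of 11858 genes tested, 1098 were higher in lactation (9.26%) and 1086 lower (9.16%), and these shares are the background for the lists that follow. The median change of all genes was -0.16 on the log2 scale. Since both clusters were called on these counts and each comes from 1 stage, the p-values set a difference against the spread between mice, and cell type call and stage cannot be told apart. Among the 1098 higher genes, 332 stood at least as high in C14 as in C9 in both L mice, and with basal RNA subtracted in proportion to the 15 markers 890 of the 1098 were still called.

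All 5 caseins and all 3 whey protein genes were higher in lactation, but by very unequal amounts. *Csn1s2b* stood at 50414 and 35153 CPM in C9 and at 24.02 and 12.66 CPM in C8, a change of 11.37 ± 0.44 (edgeR adjusted p = 1.6e-08). *Wap* stood at 454.1 and 93.00 CPM in C8, which makes a change of 9.48 ± 0.72 (edgeR adjusted p = 3.5e-06), and *Lalba* at 31.89 and 17.15 CPM, a change of 7.78 ± 0.39 (edgeR adjusted p = 1.2e-07). The groups lie far apart for each of these 3 genes. The other caseins were already abundant in gestation. *Csn2* stood at 34403 and 21517 CPM in C8 and rose by 2.67 ± 0.28, *Csn1s2a* by 3.03 ± 0.32, *Csn1s1* by 2.70 ± 0.28 and *Csn3* by 3.53 ± 0.30, with edgeR adjusted p from 4.7e-05 to 1.0e-05. *Glycam1* was at 6345 and 2578 CPM in C8, and L_1 lay just above them. Of all UMIs, though, it took 0.456% in L_1 and 2.89% in L_2, against 0.573% in G_1 and 0.243% in G_2. On that total L_1 lay below G_1 and the stages overlapped. The change of *Glycam1*, 2.95 ± 0.67 (edgeR adjusted p = 0.00969), rested on L_2 and was not called without that mouse.

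Genes other than the milk protein genes rose as well. *Pip* counted 2069 UMIs in the C9 sums and 1 UMI in those of C8, with levels of 3393 and 2303 CPM against 0 and 0.0483, a ratio of 123243 (counting interval 22120 to 4867820). *Orm1* counted 577 UMIs against 4, with 581.8 and 908.8 CPM in C9, and may share reads with its near copy *Orm2*. *Spp1* stood at 26683 and 37230 CPM against 122.5 and 29.57, a change of 8.92 ± 0.66 (edgeR adjusted p = 3.0e-06). In C9 of both mice *Spp1* stood above *Lalba* and below *Csn3*. *Cidea* stood at 2017 and 1221 CPM against 6.653 and 8.406, a change of 7.92 ± 0.30 (edgeR adjusted p = 1.5e-08).

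Among the other genes named for their rise, *Apod* and *Ltf* were no higher in C9 than in C11 of the same mice. *Apod*, a lipid-binding apolipoprotein, stood at 8259 and 3087 CPM in C9 and 4.770 and 4.735 in C8, and at 8768 and 4756 in C11. *Ltf*, which encodes the iron-binding lactoferrin, stood at 5230 and 5809 CPM in C9 against 36.07 and 19.18 in C8, a change of 7.84 ± 0.37 (edgeR adjusted p = 7.1e-08), and was higher still in C11 with 14214 and 16620. *Wfdc17*, of the whey acidic protein family, stood at 1426 and 11565 CPM against 9.917 and 10.82 in C8, and at 376.9 and 446.1 in C11. *Saa1*, an acute-phase apolipoprotein with a near-identical copy, *Saa2*, stood at 407.9 and 6843 CPM against 3.933 and 2.416 in C8, and at 130.6 and 108.7 in C11. For *Wfdc17* and *Saa1* the L mice lay further apart than for the rest, but their calls held without either.

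The 10 genes named for their fall include 5 that act on chromosomes or the spindle. *Rspo1*, a secreted amplifier of Wnt signals, stood at 306.1 and 365.8 CPM in C8 and had no UMI in C9 of either mouse, so that it was at least 83.3-fold lower (floor of 3 UMIs over the group). *Cenpe*, a kinesin of the mitotic spindle, had no UMI in C9 either and was at least 17.5-fold lower. *Top2a*, the topoisomerase that untangles DNA in dividing cells, stood at 174.9 and 176.5 CPM in C8 and at 22.13 and 0 in C9, a change of -4.02 ± 0.47 (edgeR adjusted p = 0.000124). Spindle and chromosome genes *Tpx2* (-4.57 ± 0.56), *Cenpf* (-4.02 ± 0.52) and the linker histone gene *Hist1h1b* (-5.19 ± 0.47) also fell. The others were *Ubd*, a ubiquitin-like protein (-6.31 ± 0.39), *Atp6v1c2*, a proton pump subunit (-4.80 ± 0.44), *Shisa2* (-4.45 ± 0.54) and *Gm266* (-6.12 ± 0.64). The 20 genes named by size were chosen for large changes past the test with no overlap of mice. That their calls held without any 1 of the 4 mice follows in part from this choice.

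**Figure D3:**
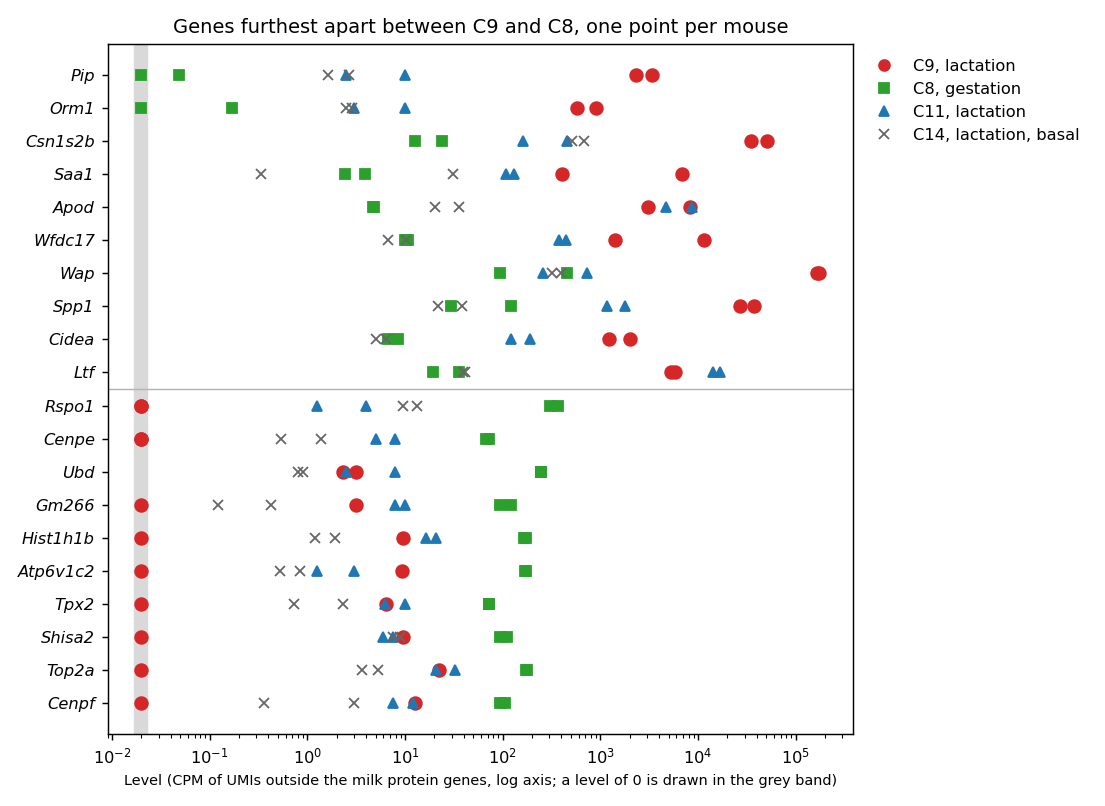
Level of the 10 genes with the largest rise (top) and the 10 with the largest fall (bottom) between C8 and C9, in CPM without milk protein genes on a log axis, with 1 point per mouse for C9, C8, C11 and C14 and levels of 0 in the grey band. For *Apod* and *Ltf* C11 is as high as C9 or higher, and for *Rspo1* and *Cenpe* both C9 points lie at 0.

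Beyond caseins and whey proteins, secreted milk proteins rose as a group. Of 16 tested, 15 were higher in C9 than in C8 and 0 lower, with a median change of 4.35. *Trf*, the iron carrier transferrin, stood at 19104 and 20753 CPM against 1839 and 1596, a change of 3.74 ± 0.24 (edgeR adjusted p = 9.5e-07). *Cel*, the bile salt-stimulated lipase of milk, stood at 575.5 and 800.1 CPM against 35.15 and 24.25. *Mfge8*, a coat protein of the milk fat globule, stood at 2277 and 2999 CPM against 202.7 and 211.4, a change of 3.88 ± 0.25 (edgeR adjusted p = 7.8e-07). The groups did not overlap for these genes, which was so for 1085 of the 1098 genes called higher. *Wfdc18*, already at 17684 and 13662 CPM in C8, rose by 1.86 ± 0.27, and *Muc15* was the member not called, with 2160 and 1586 CPM against 2235 and 1934. *Pthlh*, which encodes a calcium-mobilising hormone, was called (edgeR adjusted p = 0.00158) but stood higher in C14, at 70.93 and 68.99 CPM, than in C9, at 18.97 and 9.250, and was not tested without either G mouse.

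Lactose synthesis rose in part. Of 14 genes tested, 5 were higher and 0 lower, with a median of 0.45. *B4galt1*, the galactosyltransferase with which alpha-lactalbumin forms lactose synthase, stood at 442.7 and 335.3 CPM against 89.76 and 65.32, a change of 2.51 ± 0.20 (edgeR adjusted p = 4.9e-06). *Hk2*, a hexokinase, changed by 1.09 ± 0.25. The glucose transporter gene *Slc2a1* (69.56 and 159.6 CPM against 57.41 and 68.31) was not called without L_2 (edgeR adjusted p = 0.688).

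Genes of fatty acid synthesis rose in larger number. Of 22 tested, 17 were higher and 0 lower, with a median of 1.62. *Fasn*, the fatty acid synthase, stood at 537.5 and 252.1 CPM against 72.39 and 44.45, a change of 2.90 ± 0.29 (edgeR adjusted p = 3.8e-05). *Slc25a1*, which exports citrate from mitochondria for this synthesis, stood at 167.6 and 131.8 CPM against 27.32 and 21.35, a change of 2.80 ± 0.21 (edgeR adjusted p = 4.1e-06). *Scd1*, the desaturase that makes oleate, stood at 2156 and 2736 CPM against 466.0 and 464.7, a change of 2.60 ± 0.23 (edgeR adjusted p = 1.1e-05). For these genes the mice of both stages were separate, as for nearly all genes called higher. *Olah*, the thioesterase that ends chains at medium length in mammary cells, changed by 2.19 ± 0.29, *Acaca*, the carboxylase at the start of the pathway, by 2.28 ± 0.26, and *Acly*, which splits citrate, by 1.01 ± 0.18. *Srebf1*, the transcription factor of the pathway, stood at 129.6 and 196.6 CPM against 100.5 and 90.49 and was not called without L_2 (edgeR adjusted p = 0.171).

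Uptake and assembly of fat followed in part. Of 15 genes of fatty acid uptake and binding, 6 were higher and 1, *Acsl3*, was lower. *Fabp3*, a fatty acid binding protein, stood at 5372 and 4757 CPM against 856.8 and 319.5, a change of 3.30 ± 0.38 (edgeR adjusted p = 9.9e-05). *Lpl*, which frees fatty acids from blood lipoproteins, changed by 1.79 ± 0.22, and the fatty acid receptor gene *Cd36* by 1.88 ± 0.25. Of 9 triglyceride assembly genes, 5 were higher, 3 without L_1 and 3 without G_2, and *Dgat1*, which adds the last acyl chain, changed by 1.76 ± 0.29. Of 8 fat droplet genes, 6 were higher. *Btn1a1*, butyrophilin, which with the oxidoreductase of *Xdh* links droplets to the surface membrane, stood at 1091 and 906.5 CPM against 126.9 and 87.88, a change of 3.40 ± 0.22 (edgeR adjusted p = 9.5e-07). *Xdh* changed by 2.51 ± 0.20, whereas the droplet coat gene *Plin2* was at 1227 and 1804 CPM against 1173 and 1107 and was not called. Of 19 genes of cholesterol synthesis and uptake, 4 were higher, with a median of 0.91, *Msmo1* (2.17 ± 0.28) and *Fdps* (1.56 ± 0.19) among them.

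Several carriers of ions were nearly absent from gestation cells. Of 23 genes tested, 11 were higher and 0 lower, with a median of 1.26. *Atp2b2*, the calcium pump of the apical membrane, counted 26 UMIs in C9 and 5 in C8, with 50.59 and 23.13 CPM against 0.209 and 0 (ratio 310, counting interval 133 to 954). *Slc34a2*, a phosphate carrier, stood at 215.0 and 108.7 CPM against 3.180 and 1.401, a change of 6.25 ± 0.39 (edgeR adjusted p = 7.3e-07). *Slc39a8*, a carrier of zinc and manganese, stood at 88.53 and 175.8 CPM against 1.214 and 0.676, a change of 7.34 ± 0.41 (edgeR adjusted p = 3.2e-07). C14 held less than C9 of each of these 3 genes in both mice. *Atp2c2*, a calcium pump of the Golgi, changed by 3.74 ± 0.35, the folate receptor gene *Folr1* by 3.26 ± 0.22 and the water channel gene *Aqp5* by 2.69 ± 0.17. The zinc exporter gene *Slc30a2* (12.65 and 27.75 CPM against 3.682 and 2.995) was called with 4 mice but not without L_2, G_1 or G_2 (edgeR adjusted p from 0.147 to 0.194). *Mt1*, which binds zinc, stood at 4942 and 7576 CPM in C9 but at 26169 and 29645 in C14, and was not called with basal RNA subtracted.

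The secretory machinery changed less than its cargo. Of 37 genes of ER translocation and folding, 16 were higher and 0 lower, with a median of 0.50, and 9 were higher without G_2. *Ssr4*, a subunit of the translocon-associated complex, stood at 1360 and 1092 CPM against 672.2 and 576.3, a change of 1.16 ± 0.19 (edgeR adjusted p = 0.00153). *Sdf2l1*, an ER chaperone partner, changed by 1.82 ± 0.20, and *Xbp1*, the transcription factor of secretory cells, stood at 809.5 and 622.1 CPM against 197.6 and 176.7, a change of 2.12 ± 0.18 (edgeR adjusted p = 1.0e-05). The main chaperone genes *Calr* (566.0 and 400.1 CPM against 616.4 and 597.9) and *Hsp90b1* (360.5 and 328.4 against 448.2 and 448.3) were not called. Of 11 ER stress genes 3 were higher, *Xbp1*, *Trib3* and *Asns*, and 1 without L_2, while *Ddit3* was not called. Of 26 Golgi and vesicle genes, 6 were higher and 2, the coat genes *Copb1* and *Copb2*, lower, and without either G mouse none was lower by edgeR, with 5 lower at an unadjusted p under 0.05 and 2 by DESeq2 in all 4 mice. Of 15 amino acid transporters 4 were higher, *Slc1a4*, *Slc3a2*, *Slc7a4* and *Slc7a5*, and 1 lower, *Slc38a1*, whose call was lost without L_1 or G_2.

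The prolactin receptor pathway itself was mostly not called. Of 10 genes tested, 2 were higher and 0 lower, with a median of 0.21. *Prlr* stood at 79.05 and 62.44 CPM in C9 and 64.15 and 58.99 in C8, and *Stat5a* at 56.91 and 50.88 against 59.25 and 59.81. The values of both genes were close between stages. *Elf5*, the transcription factor of alveolar fate, stood at 847.4 and 825.6 CPM against 547.9 and 441.9, a change of 0.95 ± 0.19 (edgeR adjusted p = 0.00500). *Socs3*, a feedback inhibitor of cytokine signals, stood at 218.2 and 305.3 CPM against 22.81 and 26.43, with 2452 and 2573 in C14. It was still called with basal RNA subtracted, but in L_1 the amount subtracted, 11.3% of the C14 level, exceeded its level in C9. That call thus rested on L_2. Of 13 transcription factors of the secretory lineage 6 were higher and 4 lower, and without L_2 3 and 3, while 2 were lower without either G mouse. *Ehf*, an epithelial factor of the ETS family, stood at 189.7 and 129.5 CPM against 421.6 and 537.1, a change of -1.42 ± 0.22 (edgeR adjusted p = 0.000835), and *Foxs1* fell by 1.84 on the log2 scale. The calls of *Cebpb* and *Bhlhe40* were lost without L_2 (edgeR adjusted p = 0.307 and 0.815).

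Most cell division genes were lower. Of 20 tested, 0 were higher and 17 lower, with a median of -2.43. *Mki67*, the marker of cycling cells, stood at 22.13 and 13.88 CPM against 174.6 and 164.4, a change of -3.08 ± 0.28 (edgeR adjusted p = 1.6e-05). *Birc5*, which acts in chromosome segregation, stood at 22.13 and 4.625 CPM against 177.9 and 169.2. *Pcna*, a clamp of DNA replication, was not called, with 44.27 and 41.63 CPM against 57.62 and 54.45, nor were *Aurka* and *Tk1* (edgeR adjusted p = 0.0592 and 0.0840). Of the division UMIs that C9 did hold, 124 of 154 lay in 1 cell of L_1, whereas the 70 of L_2 were spread over 17 of 47 cells with at most 17 in 1 cell.

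Transcripts of energy metabolism and of ribosomes went different ways. Of 42 nuclear genes of oxidative phosphorylation, 16 were higher and 1 lower, with a median of 0.43, and 7 were higher without G_2. *Ndufa1* stood at 477.4 and 471.8 CPM against 200.6 and 161.1, a change of 1.59 ± 0.18 (edgeR adjusted p = 9.8e-05). Of 10 mitochondrial genome genes 5 were higher, 2 without L_2 or without G_2, and *mt-Co1* changed by 0.80 ± 0.19. Of 88 genes matched as ribosomal proteins, 3 were higher and 28 lower, with a median of -0.51, but 6 were lower without G_1, 6 without G_2 and 43 without L_2, and 8 were higher without L_1. The match by name also took in genes that encode no ribosomal protein, namely *Rps19bp1* and the kinase genes whose names start with *Rps6k*, of which *Rps6kb1* was called lower. With milk protein genes left out of the total the ribosomal proteins summed to 170266 and 176607 CPM in C9 and 279591 and 291591 CPM in C8.

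**Figure D4:**
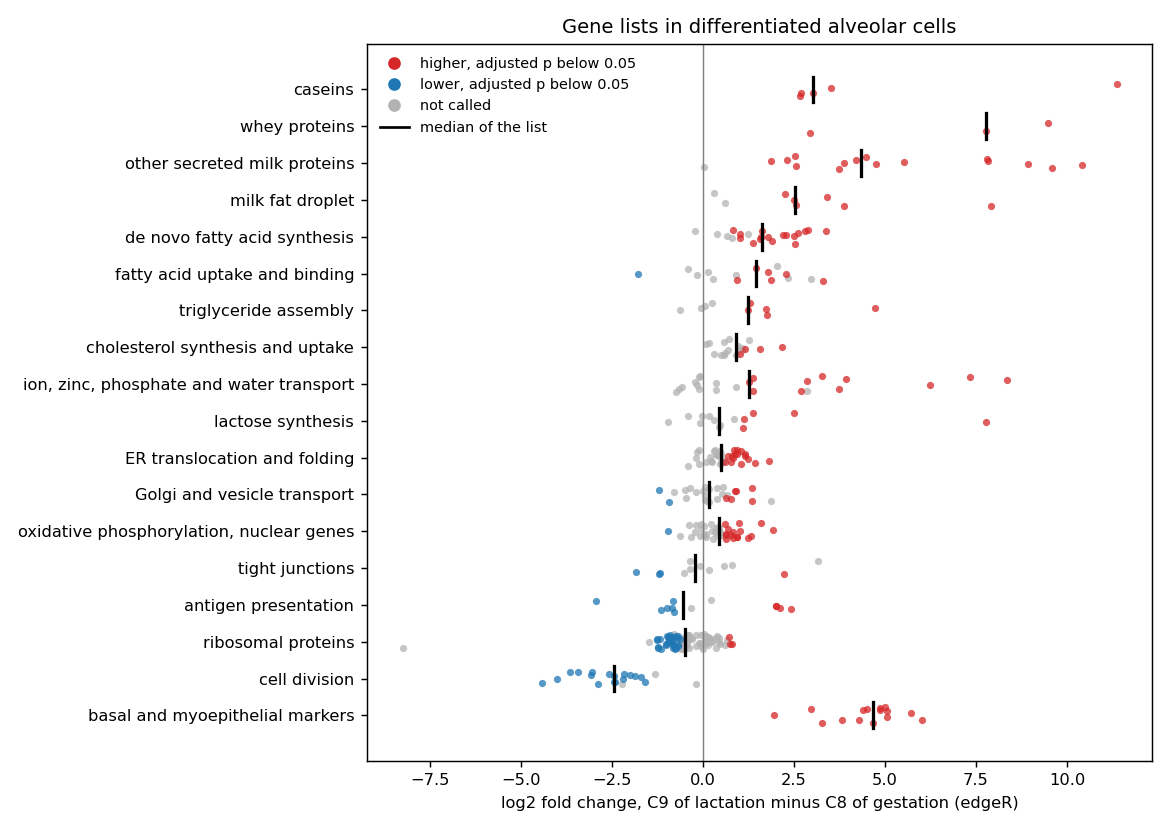
Log2 fold change of C9 over C8 (edgeR, x axis) for the tested genes of 18 lists (y axis), with 1 point per gene coloured by its call and a bar at the median of the list. Milk protein and fat lists lie to the right, cell division lies to the left with 17 of 20 genes lower, and the basal markers lie to the right with 15 of 15.

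Antigen presentation split between its arms. Of 12 genes tested, 4 were higher and 6 lower. *Psmb9*, a subunit of the immunoproteasome, which cuts peptides for class I molecules, stood at 12.65 and 11.56 CPM against 111.2 and 101.5, a change of -2.94 ± 0.32 (edgeR adjusted p = 6.1e-05), and *B2m*, *H2-K1*, *Tap1*, *Tap2* and *Psmb8* were lower too, with 1 lower without G_1 and 2 without G_2. The 4 class II genes *Cd74*, *H2-Aa*, *H2-Ab1* and *H2-Eb1* were higher, with *H2-Ab1* at 151.8 and 80.94 CPM against 29.17 and 34.83. *H2-Aa* was not called without L_1 (edgeR adjusted p = 0.401), where *Cd74* was just called (0.0469), and 3 cells of L_1 held 69.3% of the UMIs of *Cd74* and 68.6% of those of *H2-Aa* there. In L_1 1 cell also held 107 of the 177 UMIs of the immune markers, and its part in these calls was not tested.

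The junction and keratin genes of the epithelium moved little. Of 12 tight junction genes, 1 was higher, *Cldn8*, at 215.0 and 168.8 CPM against 54.52 and 37.88 (2.23 ± 0.22, edgeR adjusted p = 3.5e-05), and 3 were lower, *Cldn1* and *Tjp1* among them, and 1 was lower without either G mouse, while 3 were higher without L_1. Of 6 luminal keratin and adhesion genes 1 was higher, *Krt7*, which was not called without L_1 (edgeR adjusted p = 0.0729), and *Cdh1*, E-cadherin, fell by 1.62 on the log2 scale, from 182.9 and 204.4 CPM to 53.75 and 55.50. *Krt18*, the keratin of luminal cells, was at 1202 and 2137 CPM against 2837 and 3370 and was not called.

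Lists of progenitor, hormone and growth factor genes gave mixed calls. Of 5 luminal progenitor markers 2 were higher, *Cd14*, at 613.4 and 869.5 CPM against 165.6 and 283.1, and *Tspan8*, and of 10 hormone-sensing markers 2 were higher, *Ly6a* and *S100a6*, and 1 lower, *Areg*, whose call was lost without G_2 (edgeR adjusted p = 0.0653). *S100a6* stood at 6408 and 6627 CPM in C14 and was not called with basal RNA subtracted. Of 15 growth factor and ligand genes 6 were higher and 2 lower, and 3 were higher without G_2. *Vegfa*, the growth factor of blood vessels, stood at 75.89 and 159.6 CPM against 32.68 and 29.52, a change of 2.19 ± 0.29 (edgeR adjusted p = 0.000270), and *Tgfb2* fell by 1.33 on the log2 scale. Of 15 involution and STAT3 genes 7 were higher and 0 lower, 4 cathepsins of the lysosome among them, with *Ctsd* at 622.9 and 742.3 CPM against 157.9 and 146.8.

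Markers of other cells and of tissue handling also moved with the stage. All 15 basal markers were called higher in C9 than in C8, with a median of 4.66, and by construction few of them (2 of 15) were with basal RNA subtracted. Of 9 immune markers 5 were higher, their sum at 559.7 and 136.4 CPM in C9 and 90.89 and 119.1 in C8, but 1 cell of L_1 held 107 of its 177 immune UMIs and 1 of the 9 was called without L_1, 2 without G_1 and 1 without G_2. *Cd3e* and *Cd79a*, of T and B cells, had no UMI in C9. Of 5 endothelial markers edgeR called 0, as did DESeq2, and 0 had an unadjusted p under 0.05, with sums of 44.27 and 13.88 CPM against 12.60 and 14.78. Of 6 fibroblast markers 1 was higher, *Dcn*, at 75.89 and 20.81 CPM in C9 and 497.8 and 424.3 in C14, and not without L_1 (edgeR adjusted p = 0.256) or with basal RNA subtracted. Of 2 pericyte markers edgeR called 0, DESeq2 called 1 and 1 had an unadjusted p under 0.05. None of the 6 adipocyte markers passed the filter on low counts of edgeR, DESeq2, run without it, called 1 higher, and *Adipoq*, *Plin1* and *Retn* had no UMI in C9. Of 15 genes that respond to tissue dissociation 12 were higher, with a median of 1.16, *Fos* at 4215 and 3480 CPM against 2036 and 1339, and C14 held 8895 and 6677 CPM of *Fos*. The part of these other cells and of handling in the stage differences was not tested beyond the subtraction.

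C9 and C11 of the same mice were set side by side next, to describe how differentiated and progenitor alveolar cells of lactation differ. The clustering set these cells of the same mice apart on the same counts, so no test was made, and genes past 2-fold in both mice are counted. The result turned on the library total. On the total of all genes, of 4459 genes at 20 CPM or more in both mice, 63 were higher in C9 (1.41%) and 1263 in C11 (28.3%), with a median log2 ratio of -0.84 in L_1 and -0.93 in L_2. Without the milk protein genes, of 4960 genes, 211 were higher in C9 (4.25%) and 300 in C11 (6.05%), with medians of -0.07 and -0.19. Log2 ratios below are on the total without milk protein genes with a pseudocount of 1 CPM.

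The genes furthest above C11 were secreted proteins and enzymes of fat. *Pip* had a log2 ratio of 8.27 in L_1 and 9.36 in L_2, *Wap* 9.31 and 7.92, *Csn1s2b* 6.78 and 7.75, *Glycam1* 7.08 and 7.56 and *Orm1* 7.19 and 6.37. *Cel* (5.01 and 6.36), *Scd1* (4.95 and 4.87), *Lpl* (4.57 and 4.84), *Fabp3* (5.29 and 4.41) and *Sftpd*, which encodes a surfactant protein (4.41 and 4.57), followed. Both mice gave ratios far above 2-fold for each of these 10. Other caseins differed less, with 2.66 and 2.67 for *Csn2* and 1.60 and 1.42 for *Csn3*, which was under 2-fold on the total of all genes. Of 19 fatty acid synthesis genes at 20 CPM, 12 were higher in C9 and 0 in C11, *Fasn* with log2 ratios of 4.38 and 3.59. *Scd1* and *Fasn* were thus higher in C9 than in C11 as well as in C8.

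C11 was higher in 3 of 5 progenitor markers, in 6 of 37 ER translocation and folding genes (C9 in 1, *Ssr4*) and in some genes nearly absent from C9. *2310057J18Rik* stood at 1238 and 1561 CPM in C11 against 9.486 and 2.313 in C9, *S100g*, a calcium-binding protein, at 1098 and 3355 against 12.65 and 16.19, *Ly6d*, a surface protein, at 768.7 and 1624 against 6.324 and 4.625, and *Ccl6*, a chemokine, at 291.1 and 494.8 against 9.486 and 2.313. *3110079O15Rik*, *Kcne3*, *Lgals3*, *Klk13*, *Gdpd1* and *Arg1* completed the 10 furthest below C11. None of the 10 exceeded 16.19 CPM in C9. The progenitor markers *Aldh1a3* (631.1 and 1028 CPM in C11, 132.8 and 11.56 in C9) and *Kit* (129.6 and 118.7 against 47.43 and 48.56) were higher in C11, as was *Lurap1l*, while *Cd14* (449.6 and 437.3 against 613.4 and 869.5) and *Tspan8* (330.0 and 382.4 against 202.4 and 101.8) were not past 2-fold in both mice. The ER chaperone genes *Hspa5* (3330 and 3039 against 1220 and 1096), *Hsp90b1*, *Calr*, *Pdia3*, *Pdia4* and *Creld2* were more than 2-fold higher in C11, and *Ltf* had log2 ratios of -1.44 and -1.52. Of the 300 genes higher in C11, 111 stood in C14 at or above their C11 level in both mice.

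Both lactating mice gave much the same C9 profile, with a few genes far apart. Of 2725 genes at 50 CPM or more in either mouse, 32 were more than 4-fold higher in L_1 (1.17%) and 22 in L_2 (0.807%). With 1 sample on each side there is no test, and the intervals cover counting error only. In L_2 the acute-phase genes stood out, whose proteins bind lipids. *Saa3* had 260 UMIs in L_2 and 0 in L_1, at least 63.4-fold higher (floor of 3 UMIs per library), *Saa2* 1430 against 11 (ratio 95.1, counting interval 53.1 to 190) and *Saa1* 2959 against 129 (16.8, 14.1 to 20.1). *Saa1* was found in 34 of 47 cells of L_2, whereas 3 cells of L_1 held 96.1% of its UMIs. *Saa1* and *Saa2* are near-identical copies of each other, and the split of reads between them is uncertain. *Wfdc12* had 75 UMIs against 0 (at least 18.3-fold) and *Pfkfb3*, an enzyme that sets glycolysis, 26 against 1 (19.0, 3.41 to 751). *Glycam1* was also past 4-fold, with 21426 UMIs against 2610.

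The genes named for each mouse are the 5 furthest apart in that direction. Those named for L_1 had small counts, and none stood above 18.92 CPM in C14 of L_1. Other genes past 4-fold in L_1 stood higher in C14 than in C9. Among them were *Mylk*, a basal marker (670.3 CPM in C9 and 6752 in C14 of L_1), and *Cav1* (177.1 and 1181). The part of basal RNA in the difference between the mice was not tested. *D730048I06Rik* had 135 UMIs against 2 (ratio 92.3, counting interval 25.5 to 762), *Klk10*, a kallikrein protease, 22 against 0 (at least 10.0-fold), *Ccl3*, a chemokine, 61 against 3 (27.8, 9.51 to 135), *Ube2c*, a mitotic ubiquitin enzyme, 32 against 2 (21.9, 6.06 to 181), and *Fcgbp*, a mucus protein, 52 against 5 (14.2, 6.09 to 43.8). Few cells of L_1 held most of these UMIs. The top 3 cells had 94.8% of those of *D730048I06Rik*, 100% for *Klk10*, 98.4% for *Ccl3* and 78.9% for *Fcgbp*, and *Ube2c* was found in 2 cells. The counting intervals do not cover this spread between cells. *Klk10* and *Fcgbp* were higher in C11 of both mice than in C9 of either, with 208.4 and 294.9 CPM for *Klk10*. *Saa3* had no UMI in C11 of either mouse, and *Saa1* stood there at 130.6 and 108.7 CPM.

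**Figure D5:**
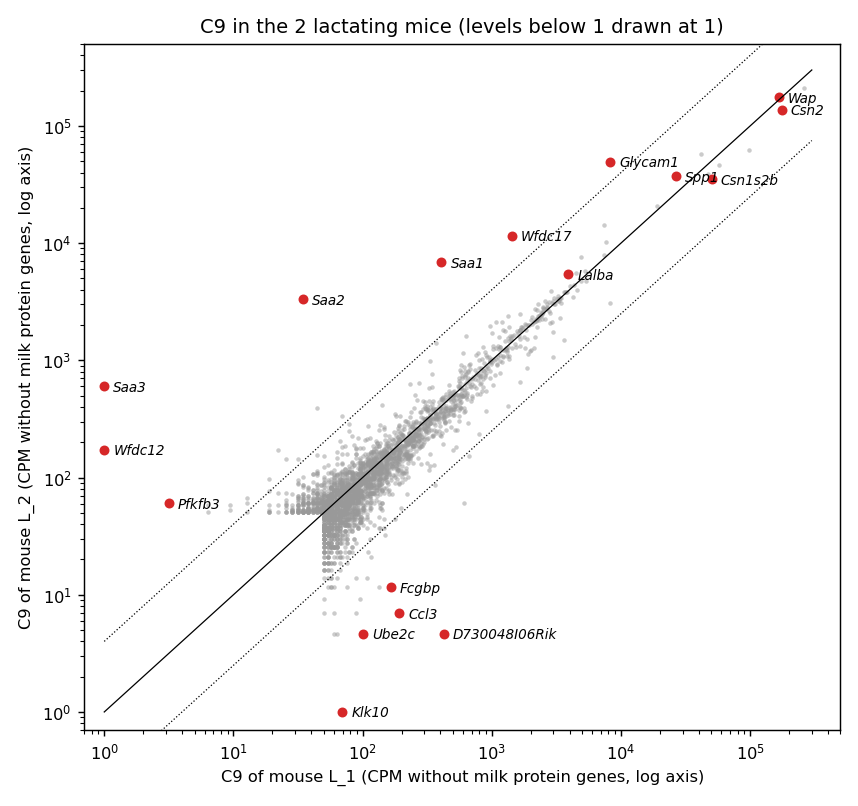
Level of each gene in C9 of L_1 (x axis) and L_2 (y axis), in CPM without milk protein genes on log axes, for genes at 50 CPM or more in either mouse, with levels below 1 drawn at 1, a solid line of equal levels and dotted lines at 4-fold. *Wap*, *Csn2* and *Lalba* lie near the solid line, while *Saa1*, *Saa2*, *Saa3* and *Glycam1* lie above the upper dotted line.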

How the data were processed

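The deposited UMI counts were made by the authors with Cell Ranger from 10x 3′ v2 libraries. The aligner STAR and the build mm10 are from the submitters' processing notes, and versions are not given in the sources used here. The authors' annotation gave each cell its library, cluster, quality flag and, as a deposited fraction, the mitochondrial share of its UMIs. It was joined to the 8 matrices by library and barcode. The combined matrix was not used, and 0 columns were unmapped. The members and lists were chosen with earlier results of these data known.

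Counts were summed per mouse and cluster. C9 was tested against C8 with edgeR 4.0.16 (limma 3.58.1, R 4.3.3): TMM factors, filterByExpr with a minimum count of 10, the quasi-likelihood test and Benjamini-Hochberg adjustment at 0.05. The sources call the samples separate mice. With 2 mice a group, the test had 2 residual degrees of freedom, and the spread was moderated over genes. The test was also run on simulated data of 11914 genes with a dispersion of 0.05 for each, in which 200 well-counted genes were changed. It called 29% of 2-fold and 95% of 4-fold changes there, with 0.8% of calls false. The simulation held no RNA of other cells and no genes held by a few cells. These rates are thus not error rates of the real calls. C9 against C11 and L_1 against L_2 were described without a test. Named genes were the 10 largest rises and 10 largest falls past the test with at least 50 CPM in the higher group, no overlap of mice, and a level at least that of the basal cluster of the same mouse, the 10 genes furthest on either side in C9 against C11, the 10 most particular to C9, and members of 34 lists. The 5 genes named for each L mouse and any gene outside these rules were chosen after values were seen. Some list members are not reported here by name. Single cells were thinned to 2000 UMIs where shares of cells with a UMI were compared. No doublet caller was run, since the study gated doublets at the sort and set aside a doublet cluster. Coordinates are from GENCODE vM21 (GRCm38, the same assembly as mm10) and promoters from RefSeq.

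Alternatives were DESeq2 1.42.0, its size factors, other filters and thresholds, milk protein genes left out, a replicate block, equal cells and depth, each mouse left out, and, added after seeing the data, basal RNA subtracted and 2 cells of L_1 left out. Python 3.11.15, numpy 2.4.6, scipy 1.17.1, pandas 2.3.3 and matplotlib 3.10.9 were used.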

Additional observations from a re-analysis of the deposited data

How the results depend on the processing

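C9 was called on 42 and 47 cells of 2 mice, which limits the precision of its sums. Of 3741 values of 241 named genes under the alternatives, 3366 kept direction and side of the threshold, 369 kept direction but missed it, and 6 reversed. Against 2184 genes called, 1098 higher and 1086 lower, leaving out 1 mouse gave 911 to 1890 genes, 619 to 921 higher and 292 to 969 lower. The lowest counts came without G_2 (911) and G_1 (1145), where fewer genes were tested and the lone sample was assumed to vary like the others. The thresholds of the study gave 325 genes, 269 higher and 56 lower. Equal cell numbers gave 1237 (489 lower), equal depth 1213 (457 lower), the filter of the study 596 lower genes, and all alveolar cells of each stage 4354 genes, 2261 higher and 2093 lower. DESeq2, run on 17960 genes without the filter, called 2372, 1514 higher and 858 lower, or 63.8% higher against 50.3%, while edgeR without the filter called 2861, 1278 higher and 1583 lower, or 44.7% higher. With the replicate block 2214 genes were called, but same-numbered mice did not deviate together (correlation 0.00341), so the numbers do not pair the mice. With basal RNA subtracted 1994 genes were called, and without the 2 cells of L_1 2260. Reversed values were -0.09 for *Acly*, 0.56 for *Gdpd1* and 2.35 for *Lgals3* with all alveolar cells, and -1.18 for *Oxtr* with basal RNA subtracted. Leaving out 1 mouse moved *Hbegf* between -0.18 and 1.66 and *Klk10* between -8.18 and 4.93. The cause was not tested.

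Genes higher in C9 than in C11 numbered 63 on the total of all genes, 211 without milk protein genes and 128 with cells thinned, and genes higher in C11 1263, 300 without milk protein genes and 658 at 50 CPM or more. With 1 mouse left out the counts ran from 110 to 138 and from 2039 to 2472, since 1 mouse then had to pass. The milk protein share of C9 was 36.53% as a median of cells and 31.61% for caseins alone, and C9 was 27.61% of luminal cells. L_1 and L_2 differed in 12 and 13 genes on the total of all genes, and in 53 and 41 with each cell weighted equally.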
